A study of Homo sapiens with 3 samples.

Results

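CAMK2N1 is an endogenous protein inhibitor of calcium/calmodulin-dependent protein kinase II (CaMKII). It was described here together with the genes of calmodulin-dependent kinases in LNCaP cells given 1 of 2 siRNAs labelled as directed at HOXD-AS1, a long non-coding RNA. The 8 listed genes were CAMK2N1, the CaMKII subunit genes CAMK2B, CAMK2D and CAMK2G, the upstream kinase genes CAMKK1 and CAMKK2, and the CaMKI genes CAMK1 and CAMK1D. All probe sets annotated to 1 of these symbols alone were taken, which gave 23 probe sets for 7 genes, of 44988 probe sets with 1 symbol and 49388 in all. CAMK2B had 0 probe sets under that rule and was not analysed here. The list was chosen by the intensities themselves, namely the high CAMK2N1 signal on both siRNA arrays against the control array, so the values of its members are a description and carry no test.

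When calcium rises in a cell, it binds calmodulin, and the complex switches on the CaM kinases. CaMKII is a multi-subunit kinase that can then phosphorylate itself and stay active, and CAMK2N1 protein binds the active enzyme and blocks it. CaMKI needs a further phosphorylation by a CaM kinase kinase, the product of CAMKK1 or CAMKK2. CAMKK2 also phosphorylates the energy sensor AMPK, and in prostate cancer cells it is known as an androgen-induced gene.

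LNCaP is an established human prostate cancer line that responds to androgen. All 3 arrays carried RNA from cells in phenol red-free medium with serum, transfected by lipid carrier at 75 nM and, by the series' design text, collected after 48 h. The control array had a negative control siRNA, and the siRNA 1 and siRNA 2 arrays had different siRNAs with HOXD-AS1 in their titles. A further label, however, placed their target points at positions 588 and 1290 of the coding sequence of another gene, WDR5, so which transcript the siRNAs match is not settled by the labels and was not tested. WDR5 itself read 445 for control, 351 for siRNA 1 and 407 for siRNA 2 in its brighter probe set and 420, 380 and 374 in the other, log2 differences of -0.34 to -0.13. With a single array in each group, differences below have no replicate check and no p-value is given. The source labels named LNCaP for the control, LNCaP-Bic for siRNA 1 and LNCaP-AI for siRNA 2, although the cell line label was LNCaP throughout. A difference between such cells and a difference between siRNAs cannot be told apart. The labels gave an inhibition rate of 0.23 for siRNA 1 and 0.25 for siRNA 2 relative to 1 for the control, without saying how it was measured, and HAGLR, as HOXD-AS1 is now called, had 0 probe sets in the annotation.

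The siRNA strands are shown because every comparison below is between cells that received one or another of them. They are written as labelled, 5′ to 3′, with the 2 bases at the 3′ end in capitals. The labels do not say which strand is given. Outside those end bases, siRNA 1 and siRNA 2 shared no run longer than 4 bases.
Control siRNA: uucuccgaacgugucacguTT
siRNA 1: gaaagaaggaccaaaguaaUU
siRNA 2: gcccuuucugaccugcuuaUU

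Values are linear probe set intensities. The median over all arrays and probe sets, 26.0, served as a floor: anything lower was replaced by it before log2 differences were taken. A probe set was called measured where at least 1 array exceeded the floor. The arrays were alike in signal, with median intensities of 25.7 to 26.1. All 7 luminal prostate markers with a usable probe set, KLK3, KLK2, HOXB13, KRT8, KRT18, TMPRSS2 and ACP3, were above the floor on all arrays. Of the markers of other cell types, 3 of 5 basal, 6 of 9 neuroendocrine or neuronal, 3 of 8 stromal and 5 of 6 leukocyte markers were below the floor on every array. The summed intensity of the 9 neuroendocrine or neuronal markers was 475 for control, 403 for siRNA 1 and 1913 for siRNA 2. TUBB3, a neuronal beta-tubulin gene, made up most of the siRNA 2 sum with 304, 242 and 1733. SYP (55.8, 52.4 and 59.8) and ENO2 (48.8, 53.7 and 59.0) were also above the floor on all arrays. The other 6, CHGA, CHGB, NCAM1, INSM1, SCG2 and SNAP25, stayed below it. The 8 stromal markers summed to 817, 807 and 1043, most of it from VIM at 660, 593 and 735. Among them ACTA2, a smooth muscle actin gene, read 41.7, 92.9 and 149.99, and COL3A1, a collagen gene with a control value below the floor, 17.9, 28.4 and 50.4. Both were above the control with each siRNA. ACTA2 was past 2-fold with both (1.16 and 1.85 on the log2 scale), and so was the luminal marker ACP3 (1.22 and 1.80). CAMK2N1 was highest with siRNA 1, and these markers with siRNA 2. The part of such genes in the results was not tested.

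CAMK2N1 signal was above the control on both siRNA arrays, and higher with siRNA 1 than with siRNA 2. Its brighter probe set, 11719242_s_at, read 695 for control, 3089.7 for siRNA 1 and 1870.3 for siRNA 2 (intensity). These are 4.44-fold and 2.69-fold the control value, or log2 differences of 2.15 and 1.43. The other probe set, 11719241_x_at, read 179, 519 and 367, which are 2.91-fold and 2.05-fold the control value (1.54 and 1.04 on the log2 scale). Both probe sets therefore placed the arrays in the same order, control lowest and siRNA 1 highest, but the second gave smaller folds. The siRNA 1 array was 1.65-fold above the siRNA 2 array by the first probe set and 1.42-fold by the second.

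The size of the CAMK2N1 difference can be read beside the other probe sets on the arrays. Of the 23896 measured probe sets with 1 symbol, 1.18% were at least 2-fold higher than the control with siRNA 1, 0.695% with siRNA 2, and 0.251% with both. The brighter CAMK2N1 probe set ranked 14th by its siRNA 1 difference and 52nd by its siRNA 2 difference, and the other ranked 48th and 153rd. Among probe sets with a mean intensity of 100 to 1000, the middle 95% of log2 differences ran from -0.92 to 0.83 for siRNA 1 and from -0.77 to 0.72 for siRNA 2. Above 1000 the ranges were -0.70 to 0.69 and -0.60 to 0.63. All 4 CAMK2N1 differences lay above the upper ends of these ranges, which may hold real differences as well as array-to-array scatter. CAMK2N1 was chosen for its high signal on both siRNA arrays, so high ranks follow from the choice and are no test. The suffixes _s and _x mark probe sets whose probes may match further transcripts, and CAMK2N1 had no probe set without such a suffix.

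**Figure D1:**
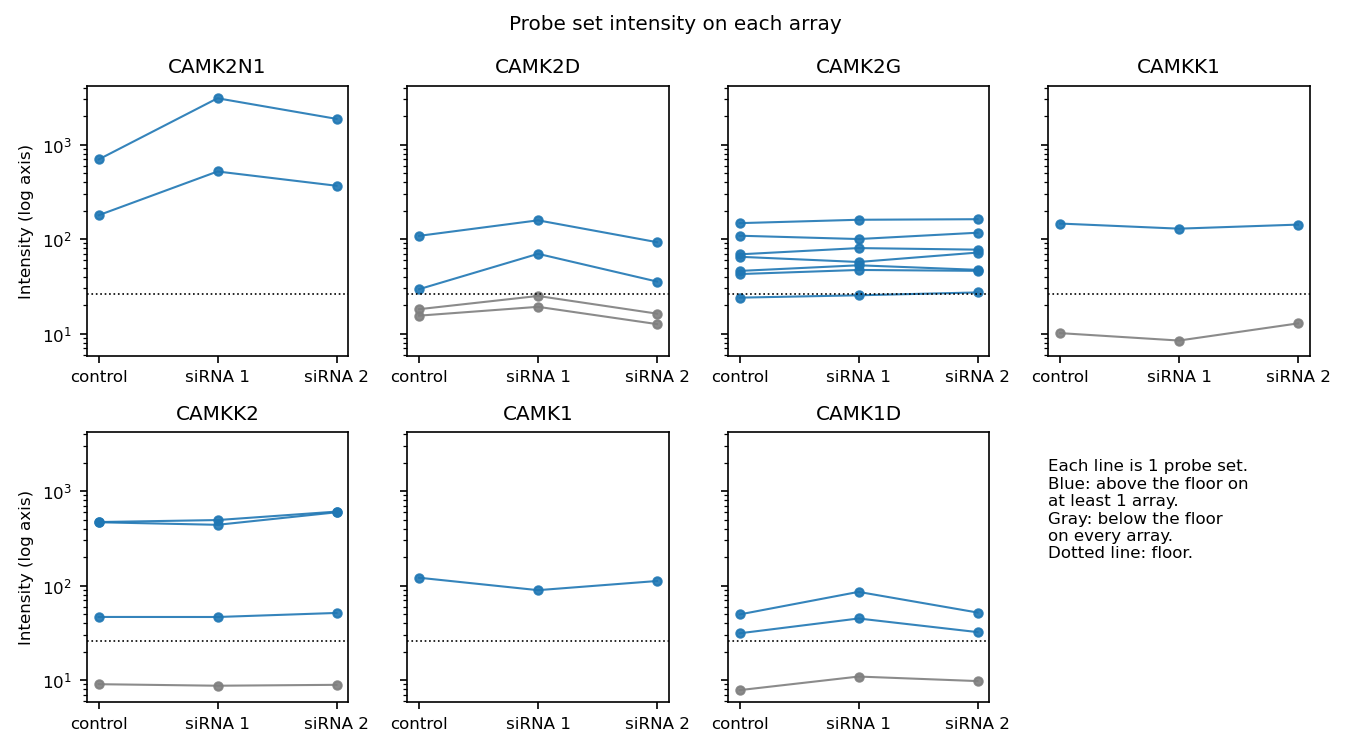
Intensity (log axis) of each probe set on the control, siRNA 1 and siRNA 2 arrays, 1 panel per gene and 1 line per probe set, with the floor of 26.0 dotted. The CAMK2N1 lines climb from 695 to 3089.7 and from 179 to 519 with siRNA 1, the CAMK2D and CAMK1D lines peak at siRNA 1, and the 7 CAMK2G lines are nearly level.

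CAMK2N2 encodes the second inhibitor of this small family and did not share the CAMK2N1 pattern. Its brighter probe set read 73.0 for control, 59.3 for siRNA 1 and 67.9 for siRNA 2, log2 differences of -0.30 and -0.10. The other CAMK2N2 probe set differed by -0.05 and 0.26. The log2 difference from the control with siRNA 1 was thus larger by 2.45 for CAMK2N1 than for CAMK2N2.

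Of the genes for the CaMKII enzyme itself, CAMK2D was higher with siRNA 1 and closer to the control with siRNA 2. The brightest CAMK2D probe set read 108 for control, 158 for siRNA 1 and 92.7 for siRNA 2, and the next read 29.5, 69.8 and 35.5. The siRNA 1 array was the highest in both, by log2 differences from the control of 0.55 and 1.24. Among probe sets of like mean intensity, the middle 95% reached 0.83 for either, so only the 1.24 lay outside. With siRNA 2 the probe sets took opposite signs, -0.22 and 0.27. The control value of the second was close to the floor. The 2 remaining CAMK2D probe sets were below the floor on all arrays and gave no difference. Averaged over its measured probe sets, CAMK2D differed by 0.89 with siRNA 1 and by 0.02 with siRNA 2.

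CAMK2G, which encodes the gamma subunit, was nearly level by all 7 of its probe sets. The brightest read 147 for control, 160.1 for siRNA 1 and 162 for siRNA 2. The log2 differences of the 7 ran from -0.18 to 0.22 with siRNA 1 and from 0.04 to 0.16 with siRNA 2. The highest array was siRNA 1 for 3 of them and siRNA 2 for 4. The dimmest of the 4 was above the floor on the siRNA 2 array alone, so the floor fixed its highest array. Over all measured probe sets with 1 symbol, the highest array was siRNA 1 for 35.1% and siRNA 2 for 30.8%. CAMK2A, the alpha subunit gene best known from neurons, was below the floor on all arrays, with intensities of 12.6, 10.0 and 12.1.

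The kinase kinase genes differed little from the control. CAMKK2 had 2 bright probe sets that tracked each other. The first read 470.3 for control, 493 for siRNA 1 and 606 for siRNA 2, and the second 468, 439 and 596. Both were highest with siRNA 2, by log2 differences of 0.37 and 0.35, and near the control with siRNA 1, at 0.07 and -0.09. A dimmer CAMKK2 probe set differed by 0.00 and 0.14. CAMKK1 read 146, 129 and 142, log2 differences of -0.18 and -0.04. The remaining probe sets of CAMKK1 and CAMKK2 were below the floor throughout.

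The CaMKI genes went different ways. CAMK1D, the delta isoform gene, read 49.5 for control, 85.8 for siRNA 1 and 51.9 for siRNA 2, and its second probe set read 31.2, 44.8 and 32.2. Both were higher with siRNA 1, by 0.79 and 0.52 on the log2 scale, and within 0.07 of the control with siRNA 2. At mean intensities of 26.0 to 100, the middle 95% of siRNA 1 differences ran from -0.76 to 0.83, and both CAMK1D differences lay inside. CAMK1, the alpha isoform gene, had 1 probe set, which read 121, 89.4 and 112. It was lowest with siRNA 1, by a log2 difference of -0.44, and differed by -0.12 with siRNA 2. With the floor at the 75th percentile of all values, an intensity of 121, the siRNA 1 difference shrank to -0.0050, since that floor is about the control value. CAMK4, another substrate of the kinase kinases, was below the floor on all arrays.

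**Figure D2:**
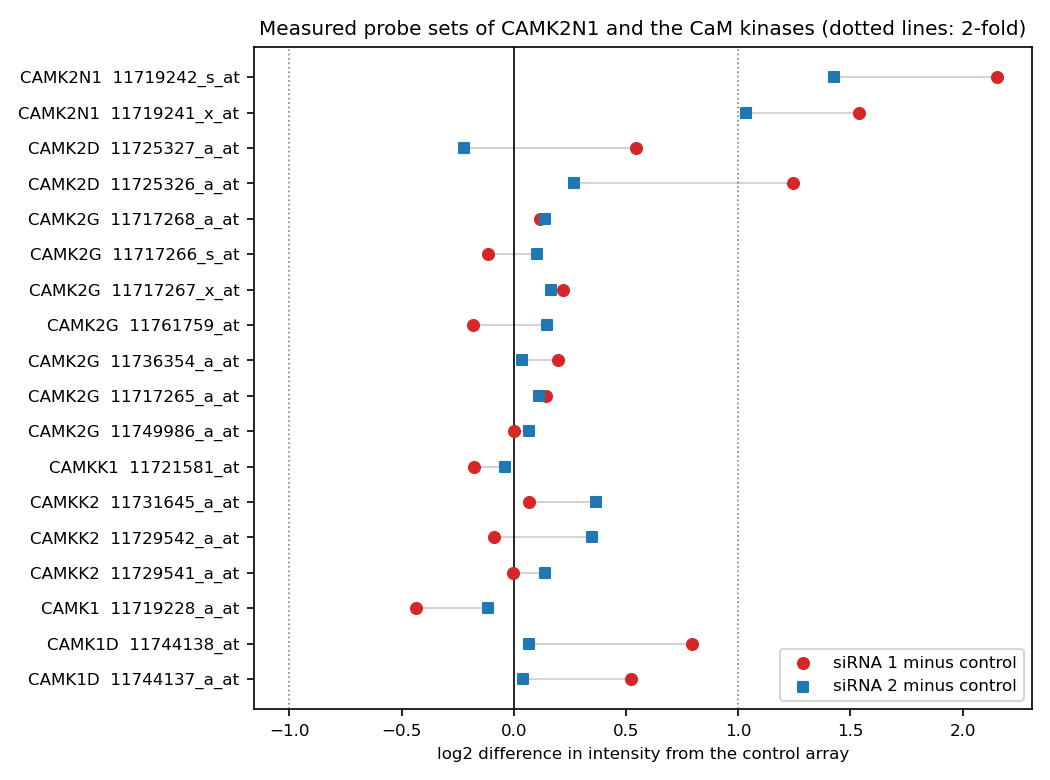
Log2 difference in intensity from the control array for the 18 measured probe sets, with siRNA 1 as red circles and siRNA 2 as blue squares, and dotted lines at 2-fold. Both CAMK2N1 probe sets lie beyond 2-fold with both siRNAs, and 1 CAMK2D probe set does so with siRNA 1 at 1.24.

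In all, 18 of the 23 probe sets were measured and 5 were below the floor on every array. A CAMK2G probe set passed through the siRNA 2 array alone, at 27.2. With siRNA 1, 3 of the 18 were at least 2-fold higher than the control, 2 of CAMK2N1 and 1 of CAMK2D, against 1.18% of all measured probe sets. At least 2-fold lower were 0, against 1.5% of all. With siRNA 2, 2 were at least 2-fold higher, both of CAMK2N1, against 0.695% of all, and 0 lower, against 0.644% of all. These shares are not read as a property of the list, since the list was built on such differences. Of the 16 measured kinase probe sets, 14 stayed within 1.5-fold of the control on both siRNA arrays, as did 81.9% of all measured probe sets. The exceptions were a CAMK2D and a CAMK1D probe set. By median, the 18 differed by 0.13 with each siRNA, and all measured probe sets by 0.00. Of the 18, 7 were of CAMK2G and so weigh on that median. With 1 probe set per gene, the medians of the 7 genes were 0.12 with siRNA 1 and 0.07 with siRNA 2. Both siRNA differences share the control array, so any error in that array enters both.

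A direct comparison of the siRNA arrays leaves the control out. Between them, 0 of the 18 probe sets differed by 2-fold or more, where 0.531% of all measured probe sets were at least 2-fold higher and 1.64% at least 2-fold lower with siRNA 2. The CAMK2D probe sets came nearest, lower with siRNA 2 by log2 differences of -0.77 and -0.97. CAMK1D followed at -0.73 and -0.48, beside CAMK2N1 at -0.72 and -0.50. In the other direction CAMKK2 differed by 0.30 and 0.44 in its bright probe sets. The siRNA 1 array was 1.5-fold or more above both other arrays for 3 of the 18, 1 each of CAMK2N1, CAMK2D and CAMK1D, where 2.67% of all measured probe sets were.

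Promoter sequences are shown for CAMK2D and CAMK1D, the kinase genes with the largest siRNA 1 differences, and for CAMK2G, which was nearly level. Of those differences, only the 1.24 of a CAMK2D probe set lay outside the middle 95% for its mean intensity. RefSeq's table held a window of 300 bases, 250 before and 50 after an annotated start, for 7 of the 8 genes, all but CAMK2N1. The windows were searched on both strands for an E-box (CANNTG) and a GC box (GGGCGG), both in capitals below, and GC box matches may overlap one another. An E-box was held by 68.7% and a GC box by 45.0% of all 35116 windows. The coordinates are of GRCh38.p14: chr4:113761689-113761988 on the minus strand for CAMK2D, chr10:12388732-12389031 on the plus strand for CAMK1D and chr10:73874506-73874805 on the minus strand for CAMK2G.
CAMK2D: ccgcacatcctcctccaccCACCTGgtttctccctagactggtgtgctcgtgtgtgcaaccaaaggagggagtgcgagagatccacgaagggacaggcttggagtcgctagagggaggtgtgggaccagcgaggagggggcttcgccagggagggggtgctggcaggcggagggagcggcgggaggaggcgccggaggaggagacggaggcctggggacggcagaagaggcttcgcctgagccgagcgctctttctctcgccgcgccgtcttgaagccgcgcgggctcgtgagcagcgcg
CAMK1D: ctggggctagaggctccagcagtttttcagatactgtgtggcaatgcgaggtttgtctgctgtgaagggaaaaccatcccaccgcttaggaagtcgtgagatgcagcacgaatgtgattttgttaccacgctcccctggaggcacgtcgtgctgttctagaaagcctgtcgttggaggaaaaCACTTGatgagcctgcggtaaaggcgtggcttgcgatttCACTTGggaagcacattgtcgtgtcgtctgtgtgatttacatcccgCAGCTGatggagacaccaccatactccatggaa
CAMK2G: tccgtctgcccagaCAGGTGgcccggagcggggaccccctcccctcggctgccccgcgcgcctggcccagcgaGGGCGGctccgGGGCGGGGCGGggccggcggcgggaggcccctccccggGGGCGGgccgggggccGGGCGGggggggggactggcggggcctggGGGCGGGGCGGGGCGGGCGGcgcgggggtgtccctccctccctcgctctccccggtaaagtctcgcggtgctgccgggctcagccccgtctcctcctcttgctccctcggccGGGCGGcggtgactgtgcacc
The CAMK2D window held 1 E-box and 0 GC boxes, and the CAMK1D window 3 E-boxes and 0 GC boxes. The CAMK2G window held 1 E-box and 10 GC boxes. Among the other measured kinase genes, GC boxes numbered 8 for CAMKK2, 3 for CAMK1, and 7 and 0 for the windows at different starts of CAMKK1. The GC content was 68.3% for CAMK2D, 52.0% for CAMK1D and 83.0% for CAMK2G. A match describes letters in these windows and no more.

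The genes whose pattern was most like that of CAMK2N1 were taken as the 5 with the smallest Euclidean distance in both log2 differences, over 3 arrays and 11286 measured genes with 1 probe set each. The nearest by these floored differences was TUBA1A, an alpha-tubulin gene, which read 174 for control, 907 for siRNA 1 and 458 for siRNA 2, log2 differences of 2.38 and 1.39. A further TUBA1A probe set differed by 2.19 and 1.29. SYTL2, a gene of vesicle transport, differed by 1.77 and 1.69, and CEL, which encodes a lipase, by 1.77 and 1.76. PEG3, an imprinted zinc finger gene, differed by 1.59 and 1.45. RGS2, which encodes a regulator of G protein signalling, read 22.1, 84.8 and 62.2. Its control value was below the floor, so its differences of at least 1.71 and 1.26 are lower bounds. In their remaining probe sets, SYTL2, CEL and PEG3 had log2 differences of 1.52 to 1.80 with siRNA 1 and of 1.07 to 1.69 with siRNA 2. By the smaller of its differences, CAMK2N1 was the 10th highest of the 11286 genes. With no floor, a setting added after the values were seen, RGS2 differed by 1.94 and 1.49 and ranked 2nd and TUBA1A 3rd, and these were the only 2 of the 5 that stayed among the 5 nearest. With only 2 differences from 1 shared control, likeness says little beyond the place of these genes in the plot.

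**Figure D3:**
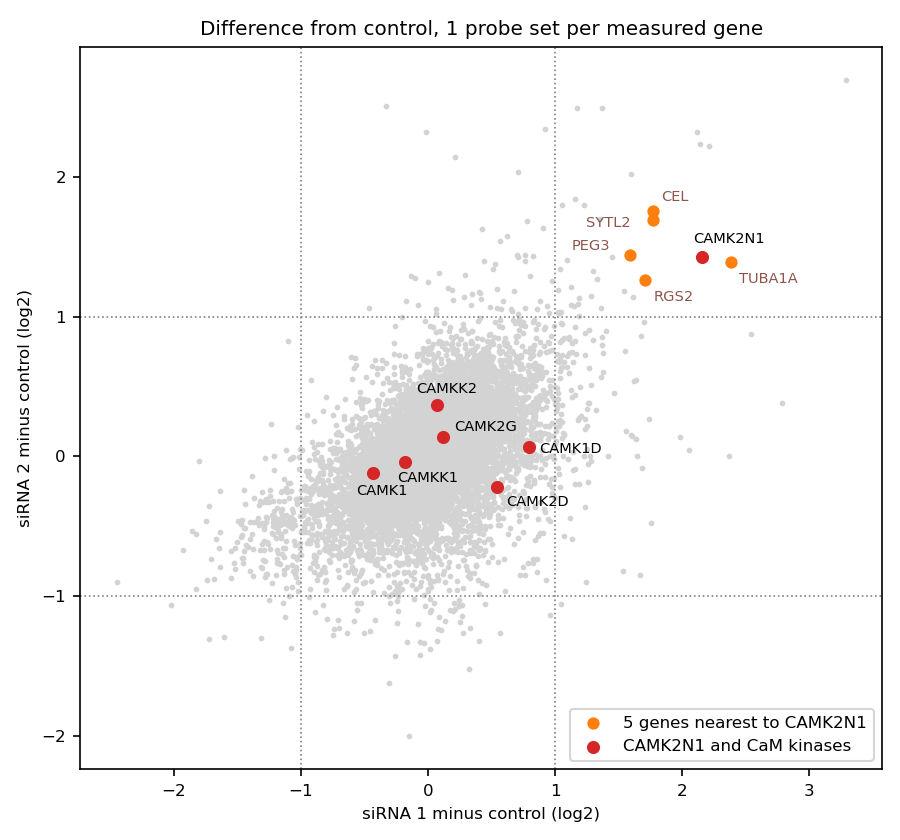
Log2 difference from the control with siRNA 1 (horizontal) and siRNA 2 (vertical) for 11286 measured genes, 1 probe set each, in gray, with dotted lines at 2-fold. CAMK2N1 lies at 2.15 and 1.43 among its 5 nearest genes in orange, and the 6 kinase genes in red lie inside the 2-fold lines.

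The genes beside CAMK2N1 on chromosome 1 were looked at next, in the gene order of RefSeq's GRCh38.p14. Of the 6 nearest protein-coding genes, 3 on each side, 5 were below the floor on all arrays: PLA2G2C, UBXN10, VWA5B1, FAM43B and CDA. MUL1, which encodes a mitochondrial ubiquitin ligase, read 146 for control, 147 for siRNA 1 and 187 for siRNA 2, log2 differences of 0.01 and 0.36. The 1 measured neighbour therefore had no difference of the CAMK2N1 size.

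Further genes of calcium and calmodulin signalling were past 2-fold about as rarely as genes at large. The 6 lists named 112 genes, counting each once, and 76 were measured out of 104 with a probe set. With siRNA 1, 1 of the 76 was at least 2-fold higher and 0 lower. With siRNA 2, 1 was higher and 1 lower. Over all 11286 genes, 1.36% were higher and 1.76% lower at 2-fold with siRNA 1, and 0.789% and 0.603% with siRNA 2.

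Among calcium channels and pumps, 15 of 22 measured genes were above the control on both siRNA arrays and 4 were below it on both, where 34.3% and 32.1% of all genes were. RYR2, among the 15, read 14.2 for control, below the floor, 34.9 for siRNA 1 and 28.7 for siRNA 2. It was measured only through the siRNA arrays, so the floor fixed its direction. The list medians were 0.21 with each siRNA, beside 0.00 and 0.01 over all genes. With probe sets averaged, the list medians were 0.19 with siRNA 1 and 0.11 with siRNA 2. Some of the 15 genes also had a further measured probe set below the control with 1 or both siRNAs. TRPM8, a cold-sensing calcium channel that is abundant in prostate epithelium, read 283 for control, 619 for siRNA 1 and 188 for siRNA 2. It was thus 2.19-fold the control with siRNA 1 and below the control with siRNA 2 (-0.59 on the log2 scale), although its other measured probe set differed by 0.18 and 0.00.

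Phosphatases that act on this pathway went both ways. Of 10 measured genes of CaMK phosphatases and calcineurin, 5 were above the control on both siRNA arrays and 2 below, with medians of 0.00 and 0.18. RCAN3, which encodes a regulator of the calmodulin-dependent phosphatase calcineurin, read 45.1 for control, 81.7 for siRNA 1 and 94.0 for siRNA 2. It was high on both siRNA arrays, by log2 differences of 0.86 and 1.06, and no further RCAN3 probe set was measured. By their brightest probe sets, the calcineurin catalytic subunit genes PPP3CA, PPP3CB and PPP3CC differed by -0.26 to 0.05 with siRNA 1 and by -0.21 to 0.15 with siRNA 2. The further PPP3CA probe sets ran from -0.44 to 0.01 with siRNA 1 and from -0.42 to 0.00 with siRNA 2. Those of PPP3CB ran from -0.43 to -0.14 and from -0.22 to -0.02. PPM1F, a phosphatase of CaM kinases, differed by 0.13 and 0.30.

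Other calmodulin-regulated kinases and their relatives had medians of 0.12 and 0.21, with 7 of 16 measured genes above the control on both siRNA arrays and 4 below. STK17B, a kinase of the death-associated family, read 65.5 for control, 64.2 for siRNA 1 and 25.3 for siRNA 2. It was at the floor with siRNA 2, at least 2.52-fold lower than the control, and level with siRNA 1. The 7 measured calmodulin-like and calmodulin-binding genes had medians of 0.09 and 0.17, with 5 higher and 1 lower in both by their brightest probe sets. Some of the 5 had a further measured probe set below the control with 1 or both siRNAs. The 2 measured genes of the CaMK family outside the list, CAMK2N2 and CAMKV, were lower in both by their brightest probe sets, CAMKV by -0.30 and -0.52. The 2 further CAMKV probe sets differed by -0.20 and -0.06 with siRNA 1 but were higher with siRNA 2, each by 0.12. The other CAMK2N2 probe set was also higher with siRNA 2, by 0.26.

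Substrates and downstream factors were divided in direction. Of 19 measured genes, 7 were above the control and 3 below it on both siRNA arrays, and 9 went opposite ways or showed no difference in one, where 33.6% of all genes did. The medians were 0.14 and 0.08. The genes of AMPK subunits, named after their values were seen, were among both kinds. PRKAA2 differed by 0.71 with siRNA 1 and, being below the floor there, by -0.59 or more strongly with siRNA 2, PRKAB2 by 0.61 and -0.36, and PRKAG2 by 0.67 and -0.15. PRKAG1 took the reverse signs, -0.19 and 0.08, in its brightest probe set, but its other measured probe set differed by -0.04 and -0.01. The other catalytic subunit gene, PRKAA1, differed by 0.15 and 0.11, and PRKAB1 by 0.14 and 0.19. CREB1, a transcription factor that CaM kinases phosphorylate, had the highest siRNA 1 difference of the list, 0.79, and 0.09 with siRNA 2.

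CAMKK2 can be set beside other androgen-induced genes. KLK3, the prostate-specific antigen gene, read 2602 for control, 2329 for siRNA 1 and 1931 for siRNA 2, log2 differences of -0.16 and -0.43. The siRNA 2 difference was opposite in sign to that of CAMKK2, and the 6 further KLK3 probe sets ranged from -0.68 to -0.35 there. The 8 measured genes of the list had medians of 0.08 with siRNA 1 and -0.33 with siRNA 2, with 3 higher and 4 lower in both. With siRNA 2, 5 of the 8 were below the control, as were 5297 of all 11286 measured genes, while CAMKK2 was above it.

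**Figure D4:**
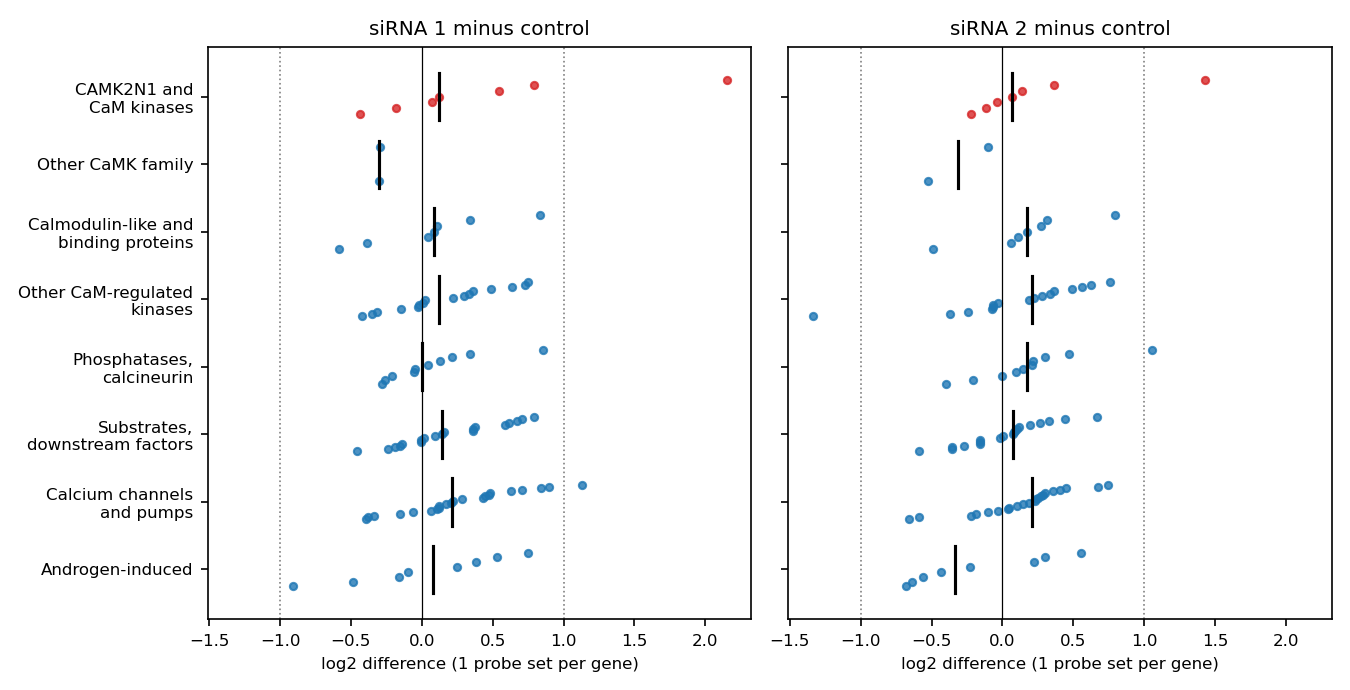
Log2 difference from the control for every measured gene of each list, 1 probe set per gene, with siRNA 1 on the left and siRNA 2 on the right, a black bar at the list median and dotted lines at 2-fold. CAMK2N1 is the red point at 2.15 and 1.43, and TRPM8, RCAN3 and STK17B are the other genes past 2-fold.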

How the data were processed

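Affymetrix arrays of 3 RNA samples, 1 per group, were described from the deposited value table. Per the labels' protocols, amplified biotin-tagged cRNA was fragmented for the arrays. The deposited values are probe set intensities on a linear scale. GCOS 1.4 was used, per the submitters' processing notes, and the background correction, summarisation and normalization are not given in the sources used here. Sorted log2 values of the arrays differed by at most 0.10, so none was rescaled, and a change shared by most transcripts could not be seen.

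The floor, the 2-fold threshold and the log2 differences were computed with pandas 2.3.3. Symbols came from the platform annotation, checked through the Entrez identifier, which matched 44961 of 44988 probe sets and updated 0. A further 1831 probe sets had several symbols and 2569 none, and were left unnamed. A gene was represented by its brightest probe set on average. Named were all members, every listed pathway gene past 2-fold, CAMK2N2, CAMK2A, CAMK4, KLK3 and the 5 genes nearest to CAMK2N1. Some further genes of this rule are not reported here. PPP3CA, PPP3CB, PPP3CC, PPM1F, CAMKV, CREB1, RYR2, the AMPK subunit genes, WDR5, ACTA2, COL3A1, ACP3, VIM and TUBB3 stand outside it and were singled out after their values were seen. The chromosome neighbours are named by position. The members and lists were chosen with earlier results of these data known. Counting was tested on simulated data.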

Additional observations from a re-analysis of the deposited data

How the results depend on the processing

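No paired analysis was possible because each group held 1 array. A value is said to have moved where it shifted by 0.20 or more on the log2 scale, the median absolute difference between the siRNA arrays, and a count where it shifted by over 1.5 times. Of 336 values under an alternative, 298 did not move by this measure. Among the 280 that are differences or medians, 11 took the opposite sign, and for 10 of these the starting value was itself smaller than 0.20. The exception was CAMK2D with siRNA 2, which averaging turned from -0.22 to 0.023. Among plain probe sets CAMK2G with siRNA 1 turned from 0.12 to -0.18. CAMK2N1 kept its sign and moved once of 26 times, when its probe sets were averaged (1.85 with siRNA 1). Changing or dropping the floor could not move it, since its lowest intensity, 179, was above the highest floor of 121. Apart from the average, its gene values repeat those of the brighter probe set, so the 26 are not separate checks. The counts of 3 and 2 probe sets at least 2-fold higher were 1 and 0 at 3-fold, and 0 with each siRNA among plain probe sets, those without a suffix, which left no CAMK2N1.

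Counts over all measured probe sets are given as siRNA 1 higher, siRNA 1 lower, siRNA 2 higher and siRNA 2 lower. With the floor at the 75th percentile (an intensity of 121) these counts came to 104, 159, 81 and 56. They were 1570, 1351, 951 and 1247 at 1.5-fold, 43, 35, 37 and 4 at 3-fold, and 71, 62, 35 and 38 among plain probe sets. Without a floor, siRNA 2 lower was 237.

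List medians moved most often among plain probe sets, which hold few genes. There the siRNA 1 median of other calmodulin-regulated kinases turned to -0.25, of phosphatases -0.21 and of substrates 0.36, and the siRNA 2 median of calmodulin-like and binding genes turned to -0.13. For substrates the siRNA 1 median was also 0.36 when the floor was the 75th percentile. The siRNA 2 median of the other CaMK family genes was -0.10 when the floor was the 25th percentile, with no floor and among plain probe sets, and -0.0093 with averaged probe sets. Ranked by the angle between the differences instead of the distance, 0 of the 5 genes nearest to CAMK2N1 were the same.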
